A study of Mus musculus with 27 samples.

Results

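Gastruloids grown from mESCs with a long 2i pulse (condition 5) were compared with gastruloids grown from mESCs with a short 2i pulse (condition 6). Gastruloids are aggregates of mouse embryonic stem cells (mESCs) that elongate after a pulse of Wnt activation and form cell types of the germ layers. The samples were chosen by their pre-culture condition in the sample labels, which gave gastruloids 5A to 5E and 6A to 6E, 10 of the 27 samples of the series. All came from mESCs of the genotype 129S1/SvImJ / C57BL/6 that were otherwise grown in ESLIF, a medium with serum and leukaemia inhibitory factor. Before aggregation, the mESCs of condition 5 spent 48 h in 2i medium followed by 48 h in ESLIF, while those of condition 6 spent 24 h in 2i followed by 24 h in ESLIF. 2i medium contains leukaemia inhibitory factor, the GSK3 inhibitor chiron (CHIR99021) and the MEK inhibitor that the labels name PD032509. Pulse length and the time in ESLIF after the pulse were changed together, so their effects cannot be told apart. Both conditions shared the later steps, which were aggregation of 600 cells, a chiron pulse that began at 48 h and ended at 72 h, and collection at 120 h after aggregation. Gastruloids of condition 1, from mESCs in ESLIF only and treated alike after aggregation, served as a reference in some comparisons (n = 5).

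Each gastruloid was dissociated and its live cells were sorted into 1 plate with 384 wells for CEL-seq2, which tags each transcript with a molecular identifier. Gastruloid and plate coincide, so the spread between gastruloids includes any spread between plates. Condition 5 was on the plates numbered 4 to 8, and condition 6 on those numbered 1 to 3, 14 and 15. The conditions were not interleaved, so an effect shared by neighbouring plates cannot be told apart from one of condition. Conditions 5 and 6 comprised 1532 and 1576 cells, with 261 to 348 cells per gastruloid, and medians of 7537 to 12135.5 counts per cell. The gastruloid was the replicate throughout. Nothing in the labels says whether the gastruloids of a condition came from separate mESC cultures, so the p-values measure only the spread between these gastruloids. The deposited tables used here hold values per cell and none per gene, so the annotated cell types could not be checked against their markers and no gene is described. Of the 4637 gastruloid cells listed, no set of counts, genes, mitochondrial fraction and cell cycle scores occurred in more than 1 gastruloid.

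Somites are blocks of paraxial mesoderm that later give rise to vertebrae, skeletal muscle and dermis. They form from the presomitic mesoderm, which is fed from the tail end by neuromesodermal progenitors (NMPs). Cells leave the presomitic mesoderm at the differentiation front, where posterior Wnt and FGF signals are low, and then enter a new somite. The names of the annotated cell types follow this sequence as Presomitic Mesoderm, Differentiation Front, Early Somite and Somite. The position of a gastruloid along it was read from the shares of these types among its mesoderm cells. That reading is an assumption, since the types could not be checked against markers. The mesoderm of conditions 5 and 6 held 2370 cells, with 199 to 269 cells per gastruloid.

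Gastruloids 6A and 6B stood apart from the other 8. The Early Somite type combines 2 clusters of the authors, cluster 1 and cluster 8. Cluster 8 comprised 254 cells in the whole series, of which 121 came from 6B and 115 from 6A. In 6C there were 11 such cells, in 6D 2 and in 6E 1. The gastruloids of condition 5 contributed 4 cells in all, and condition 1 contributed none of its 237 Early Somite cells. Counting error alone over these pooled cells allows a share of up to 1.27%, which leaves out the spread between gastruloids. Cluster 8 thus made up 92.7% of the Early Somite cells of 6A (95% Wilson interval 86.8 to 96.1%) and 92.4% of those of 6B (86.5 to 95.8%), but 13.8% in 6C (7.85 to 23.0%), 4.17% in 6D, 1.92% in 6E and at most 6.45% in condition 5.

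**Figure D1:**
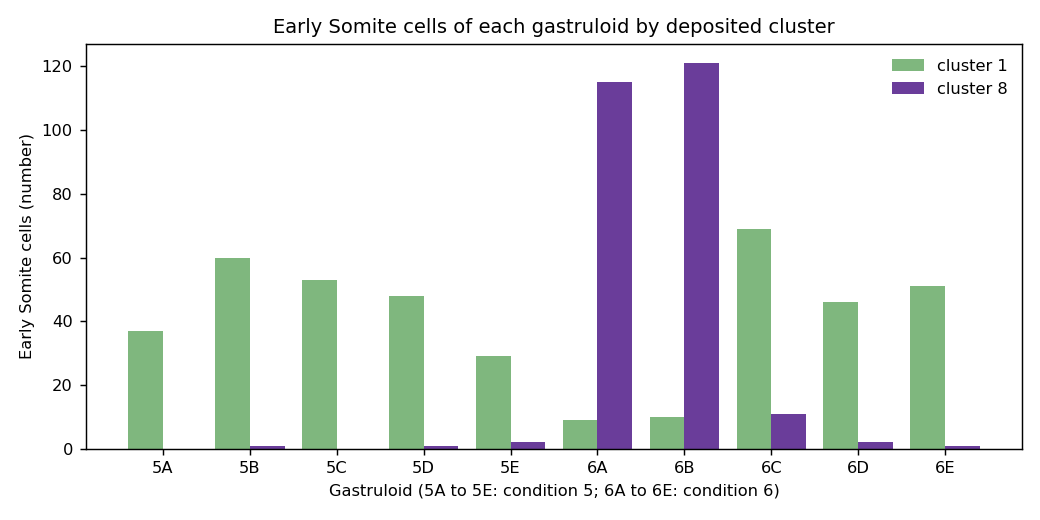
Number of Early Somite cells of each gastruloid (x axis) in the authors' clusters 1 and 8 (bars, y axis in cells). Gastruloids 6A and 6B had 115 and 121 cells in cluster 8 and 9 and 10 in cluster 1, whereas the other 8 gastruloids had 0 to 11 cells in cluster 8.

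The Early Somite cells of 6A and 6B also had more counts, with a median of 10511 per cell compared to 6026 in 6C to 6E and 6894 in condition 5. The division was also present within classes of counts, although counts were not matched inside a class. In cells with fewer than 5997 counts, the lowest of 3 classes of equal size, 37 of 44 Early Somite cells of 6A and 6B were in cluster 8 (84.1%), compared to 11 of 88 in 6C to 6E (12.5%) and 4 of 90 in condition 5 (4.44%). In the class with the most counts the numbers were 135 of 144 (93.8%), 0 of 19 and 0 of 59. Counts in this class ran up to 34406 in 6A and 6B, 14611 in 6C to 6E and 29213 in condition 5. On the deposited UMAP, the 15 nearest neighbours of each Early Somite cell were taken among the Early Somite cells of the other gastruloids. The authors computed UMAP and clusters from the same data, so the neighbours are not separate evidence of the division into clusters. For cells of 6A, 71.8% of these neighbours came from 6B, which held 24.2% of the cells they were drawn from. For cells of 6B, 74.8% came from 6A, which held 23.2%. In the 8 other gastruloids 4.86% to 24% of the neighbours came from 6A or 6B, which together held 40.2% to 43.5% of the cells. Neighbours from the other gastruloid of this pair also exceeded its share of the cells in PGC-like cells (4.32 times for 6A and 3.87 times for 6B), NMP/Caudal Epiblast (2.25 and 3.17 times), Differentiation Front (1.81 and 1.97 times) and Presomitic Mesoderm (1.72 and 1.71 times). In Somite cells they did not (0.732 and 0.836 times). For the 8 other gastruloids, neighbours from 6A or 6B exceeded their share in Presomitic Mesoderm of 5A (1.39 times) and 6D (1.15 times). The same held in 6C for PGC-like (1.15 times) and NMP/Caudal Epiblast cells (1.07 times), and in 5E for Somite cells (1.35 times). All remaining values of these gastruloids lay below the share. Other pairs of gastruloids were not compared in this way. Gastruloids 6B and 6A were on the plates numbered 1 and 2, and plate and gastruloid cannot be told apart. The main comparisons below are therefore also given without 6A and 6B, a choice made after seeing the data. With 5 against 3 gastruloids the smallest exact p is 0.0357.

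Along the order, the last step was tested on its own, without adjustment for the other measures of the order. For these same gastruloids, the paper had already described a bias to Somites in condition 5 and to Early Somites in condition 6. The p-value is therefore not separate evidence of a difference at this step. Of all Somite and Early Somite cells, Somite cells made up 67.9 ± 11% in condition 5 and 42.4 ± 21.7% in condition 6 (mean ± SD, n = 5 each, p = 0.0317, exact two-sided Wilcoxon rank-sum test). The share was 70.4% in 5A, 66.1% in 5B, 53.1% in 5C, 66.0% in 5D and 83.8% in 5E. In condition 6 it was 31.1% in 6A, 10.3% in 6B, 48.7% in 6C, 60.0% in 6D and 61.8% in 6E. The groups overlapped, since 5C lay below 6D and 6E, while the other 4 gastruloids of condition 5 lay above all of condition 6. The estimated shift was 22.0 percentage points, with a 96.8% interval of 4.35 to 55.7 points.

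The size of this difference rested on 6A and 6B. Without them the difference of means was 11.04 percentage points instead of 25.5 and was not called (exact p = 0.143). Leaving out a single gastruloid gave differences of 17.5 to 30.3 points, and the exact p was 0.0635 without any 1 of 5A, 5B, 5D, 5E, 6A, 6B or 6C. The difference was 24.9 points without 5A, 25.9 without 5B, 26.0 without 5D, 21.5 without 5E, 22.7 without 6A, 17.5 without 6B and 27.1 without 6C. Within the plates numbered 1 to 8, which hold all of condition 5 and 6A to 6C, it was 37.8 points (exact p = 0.0357, the smallest p for 5 against 3).

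**Figure D2:**
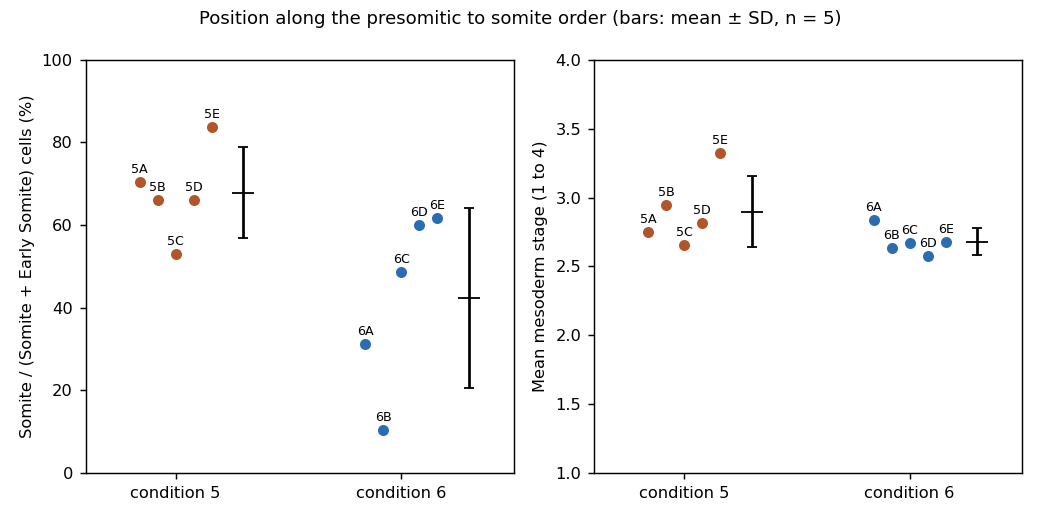
Share of Somite cells among Somite and Early Somite cells (left, in %) and mean mesoderm stage from 1 to 4 (right) of each gastruloid (points), with the mean ± SD of each condition (bars, n = 5). The lowest shares of Somite cells were 10.3% in 6B and 31.1% in 6A, and 5E was highest on both scales.

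As shares of all mesoderm cells, Somite cells made up 40.7% in 5A, 44.2% in 5B, 30.2% in 5C, 41.3% in 5D and 64.5% in 5E. In condition 6 they made up 22.5% in 6A, 7.18% in 6B, 28.5% in 6C, 30.3% in 6D and 34.3% in 6E. The means were 44.2 ± 12.6% and 24.5 ± 10.6% (mean ± SD, n = 5 each). The exact p of 0.0317 became 0.127 after Benjamini-Hochberg adjustment over the 4 ordered types, so the difference was not called, as was the case for all 4 types (0.0% of 4 tests called). The shift was 15.8 percentage points (96.8% interval 6.46 to 36.1). Without 6A and 6B the difference of means was 13.2 points (exact p = 0.143).

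Early Somite cells, which follow the differentiation front, made up 17.1% of the mesoderm in 5A, 22.7% in 5B, 26.6% in 5C, 21.3% in 5D and 12.5% in 5E. In condition 6 the shares were 49.8% in 6A, 62.7% in 6B, 29.96% in 6C, 20.2% in 6D and 21.2% in 6E. The means of 20.05 ± 5.42% and 36.8 ± 18.7% (mean ± SD, n = 5 each) were not called different (exact p = 0.222, adjusted 0.413). Only 6A, 6B and 6C lay above the range of condition 5. Without 6A and 6B, the difference as condition 5 minus condition 6 was -3.74 percentage points instead of -16.7.

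The earlier steps were closer to each other. Presomitic Mesoderm, which supplies the somites, held 21.0 ± 5.51% of the mesoderm cells in condition 5 (12.9% in 5E to 26.4% in 5A) and 19.9 ± 4.90% in condition 6 (14.1% in 6A to 24.9% in 6E), with an exact p of 0.690 (mean ± SD, n = 5 each). The 96.8% interval of the shift ran from -6.68 to 9.43 percentage points, so it includes differences of several points in either direction. Differentiation Front cells made up 12.2 ± 4.80% (7.26% in 5E to 19.6% in 5C) and 16.2 ± 5.88% (10.0% in 6A to 23.5% in 6D), with an exact p of 0.310 and an interval of -11.9 to 2.97 points (mean ± SD, n = 5 each). Gastruloids 6A and 6B had the lowest shares of both types within condition 6. Without them, the difference in Differentiation Front cells was -7.80 points (exact p = 0.0714) and that in Presomitic Mesoderm cells turned from 1.10 to -2.20 points (exact p = 1.0).

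**Figure D3:**
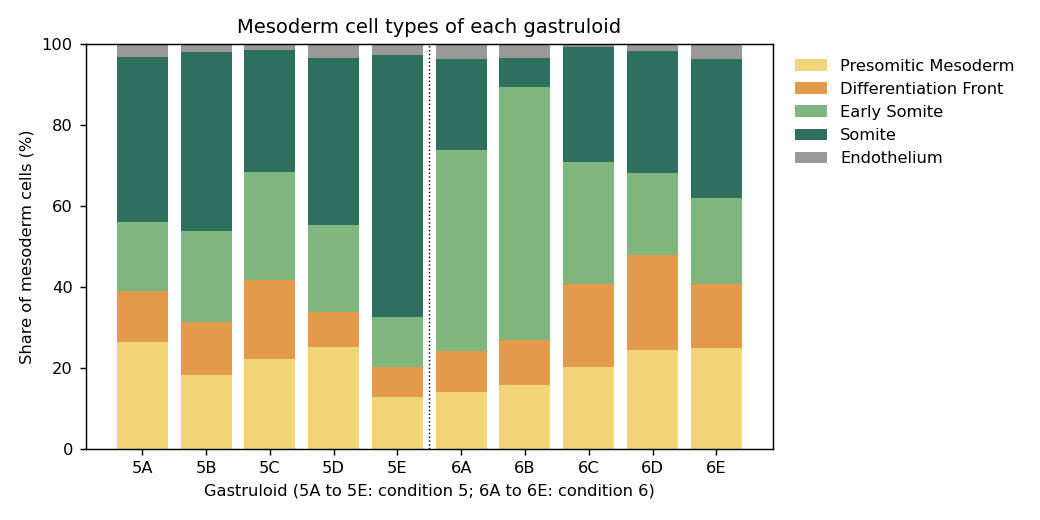
Shares of mesoderm cells (y axis, in %) in the 4 ordered cell types and in Endothelium for each gastruloid (stacked bars). Early Somite cells took 49.8% and 62.7% of the mesoderm in 6A and 6B, and Somite cells took 64.5% in 5E.

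To express the order as 1 value, the ordered types were scored from 1 (Presomitic Mesoderm) to 4 (Somite) and averaged over the cells of each gastruloid. This mean stage was 2.75 in 5A, 2.95 in 5B, 2.66 in 5C, 2.82 in 5D and 3.32 in 5E. In condition 6 it was 2.84 in 6A, 2.63 in 6B, 2.67 in 6C, 2.57 in 6D and 2.67 in 6E. The conditions were not called different, with 2.90 ± 0.260 and 2.68 ± 0.0982 (mean ± SD, n = 5 each, exact p = 0.151, interval of the shift -0.0156 to 0.650). Gastruloid 6A, which had many Early Somite cells and few cells of the earlier types, was the highest of condition 6 on this scale although its Somite share was the second lowest. The difference was 0.259 on leaving out 6A and 6B (exact p = 0.143). The call depended on the cells used. With at least 1000 counts per cell the difference was 0.244 (exact p = 0.0317), and among cells called G2M, an alternative chosen after seeing the data, it was 0.246 (exact p = 0.0159; 0.172 and exact p = 0.0714 with 6A and 6B also left out), whereas among cells called S it was 0.174 (exact p = 0.548). The 5 gastruloids of condition 5 deviated from their median by 0.173 on average and those of condition 6 by 0.0610, which was not called either (exact permutation test of the deviations, p = 0.302). This difference of 0.112 was 0.0284 without 5E. Measured as the Bray-Curtis distance of each gastruloid from the others of its condition, it was -0.0760, with the larger spread in condition 6 (exact p = 0.238).

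Condition 1 had a mean stage of 3.08 ± 0.315 (SD, n = 5), with a range of 2.76 to 3.56. The value of condition 6 was lower by 0.405 on average (exact Wilcoxon rank-sum test, p = 0.0159, adjusted over both pairs 0.0317). For condition 5 the difference was -0.185 and was not called (exact p = 0.310). It was -0.0642 without 1D (exact p = 0.556) and -0.291 without 5E (exact p = 0.111). Both tests share the gastruloids of condition 1, and the difference between conditions 5 and 6 is the one tested above. The call for condition 6 was lost without 6A and 6B, where the difference was -0.443 (exact p = 0.0357, adjusted 0.0714). It was also lost on leaving out any 1 of 8 gastruloids, with an adjusted exact p of 0.0635 each time. The difference was then -0.394 without 6B, -0.403 without 6C, -0.379 without 6D, -0.404 without 6E, -0.393 without replicate 1 of condition 1, -0.464 without replicate 2, -0.396 without replicate 3 and -0.284 without replicate 5. Replicate 5 of condition 1, gastruloid 1D, had only 39 mesoderm cells. The stage also depends on the earlier types, and Presomitic Mesoderm held 0.0% of the mesoderm in 1D to 23.0% in 1E. Somite cells made up 50.4% (1B) to 64.9% (1D) of Somite and Early Somite cells in condition 1. Gastruloids 6D (60.0%) and 6E (61.8%) lay within this range, and 6A, 6B and 6C (48.7%) lay below it.

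The Somite type combines clusters 0 and 5 of the authors. Cluster 5 held 37.5% of the Somite cells in 5A, 56.3% in 5B, 8.33% in 5C, 41.1% in 5D and 77.5% in 5E. In condition 6 the shares were 73.2% in 6A, 20% in 6B (3 of 15 cells), 25.0% in 6C, 40.3% in 6D and 29.8% in 6E. The spread between gastruloids of 1 condition exceeded the difference between the means of 44.1 ± 25.5% and 37.7 ± 21.2% (mean ± SD, n = 5 each, exact p = 0.548), and with 6A and 6B left out it was 12.5 percentage points (exact p = 0.393). For cluster 8 as a share of Early Somite cells, the means were 2.03 ± 2.64% and 41.0 ± 47.3% (mean ± SD, n = 5 each, exact p = 0.0556, adjusted over 4 clusters 0.111). On leaving out 6A and 6B the share in condition 6 was 6.61%, and the difference of -39.0 percentage points became -4.59 (exact p = 0.232). Thus 0 clusters were called at an adjusted p under 0.05, and 0 at an unadjusted exact p under 0.05.

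Next, phases of the cell cycle were compared. Each cell carries an S score and a G2M score of the authors, which have no unit, and a phase call that followed from them in 100% of the cells, as G1 if both scores were below 0 and otherwise as the phase with the higher score. Few cells were called G1, with 6.66% in condition 5 and 7.23% in condition 6. Over all cells of a gastruloid, 57.9% were called S in 5A, 57.2% in 5B, 55.6% in 5C, 53.7% in 5D and 53.7% in 5E. In condition 6, 59.1% were called S in 6A, 59.8% in 6B, 57.3% in 6C, 59.2% in 6D and 59.1% in 6E. The values of condition 6 lay close together, and only 6C fell into the range of condition 5. The means were 55.6 ± 1.94% and 58.9 ± 0.929% (mean ± SD, n = 5 each, exact p = 0.0159), but the difference was not called after adjustment over the 8 measures (adjusted 0.0847). The share called G2M was 37.8 ± 2.30% and 33.9 ± 1.82% (mean ± SD, n = 5 each, exact p = 0.0317, adjusted 0.0847). With 6A and 6B left out, the differences were -2.91 percentage points in S (exact p = 0.0714) and 3.27 points in G2M (exact p = 0.143).

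Phases differed between the cell types that make up these shares. In Early Somite cells, 79.2% were called S and 11.7% G2M in condition 5, and 69.0% and 23.2% in condition 6. Somite cells were mostly in G2M, with 56.5% against 38.1% in S in condition 5, and 60.4% against 34.0% in condition 6. This contrast between cell types is a description, since the types were defined from the same cells. When the values inside the 6 larger cell types were weighted alike in every gastruloid, the S share was 58.7 ± 3.12% in condition 5 and 56.8 ± 5.76% in condition 6 (mean ± SD, n = 5 each, exact p = 0.690). The G2M share weighted in this way was 36.1 ± 3.80% and 38.2 ± 7.46% (mean ± SD, n = 5 each, exact p = 0.841). The order of the conditions was thus opposite to that over all cells. Gastruloid 6B, in which all 15 Somite cells were called G2M, lay apart with a weighted S share of 46.8%. With 6A and 6B left out, the difference in the weighted S share, as condition 5 minus condition 6, was -0.826 percentage points (exact p = 1.0).

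Because the types at the end of the order differ in phase, the Somite share was also computed within single phases, chosen after seeing the data. Among cells called G2M, Somite cells made up 91.4 ± 5.79% of Somite and Early Somite cells in condition 5 and 64.2 ± 27.6% in condition 6 (mean ± SD, n = 5 each, exact p = 0.0317). It was 29.4% in 6B and 40.7% in 6A, compared to 74.3% to 89.3% in 6C to 6E and 81.4% to 96% in condition 5. The difference of 27.1 percentage points became 7.68 points without 6A and 6B and was not called (exact p = 0.143). Among cells called S the shares were 48.6 ± 18.6% and 27.3 ± 17.3% (mean ± SD, n = 5 each, exact p = 0.151), from 24.5% in 5C to 75.5% in 5E and from 0.0% in 6B to 42.3% in 6E. Here the difference was 10.7 points without 6A and 6B (exact p = 0.571).

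Inside the cell types, 8 measures were tested in the 6 types with at least 5 cells in at least 4 gastruloids of each condition. These were the ordered types, NMP/Caudal Epiblast and PGC-like cells, which were named for primordial germ cells. Of these 48 tests, 2 were called at a Benjamini-Hochberg adjusted p under 0.05 within their measure (4.17%), and 5 had an unadjusted exact p under 0.05 (10.4%). Values of both conditions did not overlap in 1 test (2.08%). Both calls concerned the mitochondrial percentage (2 of 6 types, 33.3%), and 0.0% of the 6 types were called in each of the other measures.

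The S share was most different in Differentiation Front cells, which are about to form somites. It was 59.3% in 5A, 57.1% in 5B, 69.2% in 5C, 65.0% in 5D and 50.0% in 5E. In condition 6 it was 72% in 6A, 73.9% in 6B, 67.3% in 6C, 75.0% in 6D and 79.5% in 6E, and only 5C and 6C overlapped. The means were 60.1 ± 7.40% and 73.5 ± 4.45% (mean ± SD, n = 5 each), with an exact p of 0.0159 that was 0.0952 after adjustment over 6 types and was not called. The S score of these cells was 0.0309 ± 0.00591 and 0.0411 ± 0.00520 (mean ± SD, n = 5 each, exact p = 0.0317, adjusted 0.190). The G2M share was 32.3 ± 8.99% and 21.6 ± 4.48% (mean ± SD, n = 5 each, exact p = 0.0952, adjusted 0.286). With at least 1000 counts per cell, the S share and the S score were called, with differences of -12.8 percentage points and -0.00915 (both exact p = 0.00794, adjusted 0.0476). With counts between the quartiles the difference in S share was -5.97 points (exact p = 0.460). Without 6A and 6B it was -13.8 points (exact p = 0.0714). With only 18 to 56 Differentiation Front cells per gastruloid, the single shares are imprecise.

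In Early Somite cells the G2M share was 8.11% in 5A, 8.20% in 5B, 20.8% in 5C, 10.2% in 5D and 9.68% in 5E. In condition 6 it was 28.2% in 6A, 27.5% in 6B, 22.5% in 6C, 12.5% in 6D and 11.5% in 6E. Hence 5C alone of condition 5 lay within the range of condition 6, and the highest values were those of 6A and 6B. The means were 11.4 ± 5.32% and 20.4 ± 8.01% (mean ± SD, n = 5 each, exact p = 0.0317, adjusted 0.190). Without 6A and 6B the difference was -4.12 percentage points (exact p = 0.143), and without 5C it was -11.4 points and called (exact p = 0.0159, adjusted 0.0476). By cluster, over pooled cells, 27.6% of the cluster 8 cells of condition 6 were called G2M, compared to 17.3% of its cluster 1 cells and 11.9% of the cluster 1 cells of condition 5. Most cluster 8 cells of condition 6 came from 6A and 6B, and most of its cluster 1 cells from 6C to 6E. Cluster and gastruloid can therefore not be told apart here. The S share of Early Somite cells was 79.6 ± 6.82% and 71.1 ± 6.54% (mean ± SD, n = 5 each, exact p = 0.0952, adjusted 0.286).

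**Figure D4:**
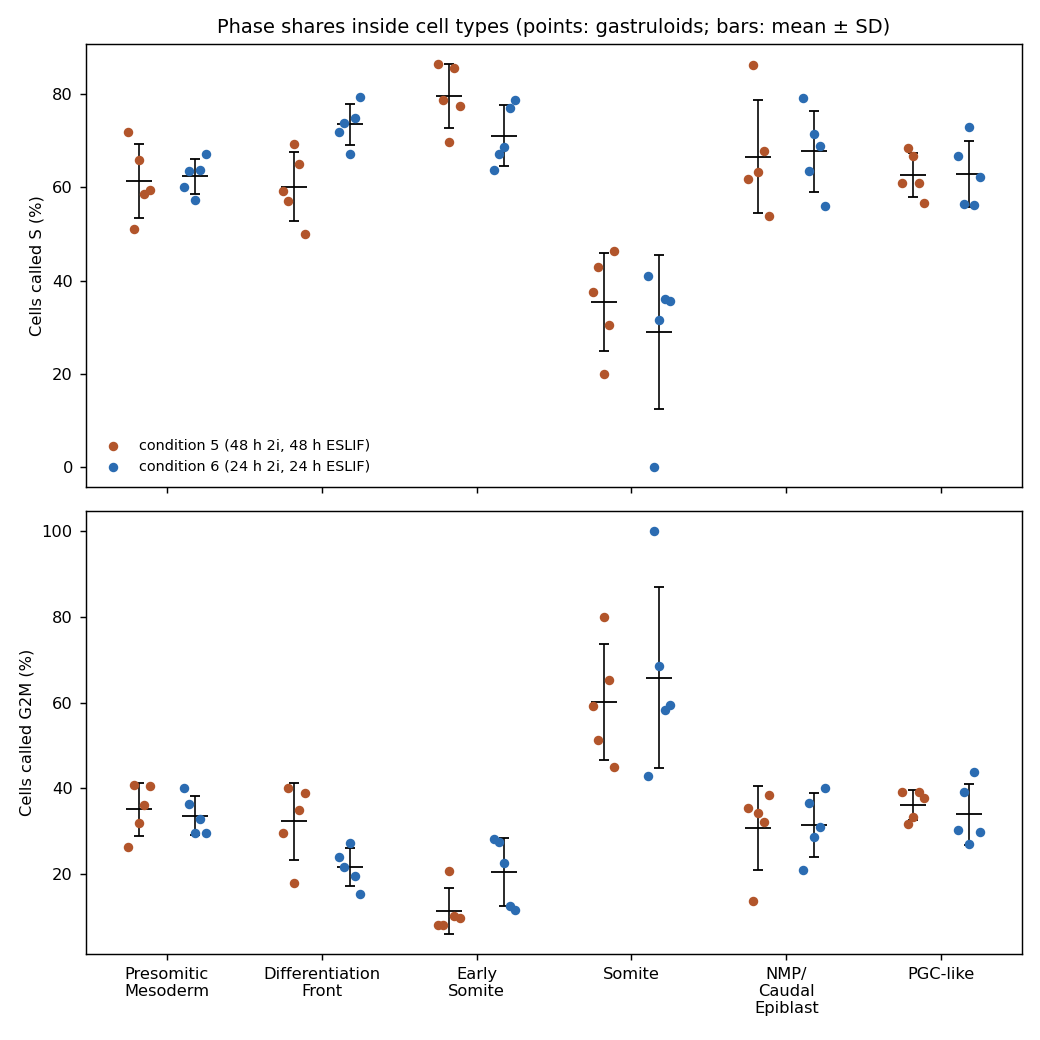
Share of cells called S (top, in %) and G2M (bottom, in %) inside 6 cell types, with 1 point per gastruloid and the mean ± SD of each condition (bars, n = 5). Somite cells had the lowest S shares in both conditions, and Differentiation Front cells had 60.1% in S in condition 5 and 73.5% in condition 6.

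The other cell types gave smaller differences in phase. The S share of Presomitic Mesoderm was 61.4 ± 7.92% and 62.4 ± 3.79% (mean ± SD, n = 5 each, exact p = 0.841). For Somite cells it was 35.4 ± 10.5% and 28.9 ± 16.5% (mean ± SD, n = 5 each, exact p = 0.548), where 6B had 0.0% and the other 4 gastruloids of condition 6 had 31.6% to 41.1%. In NMP/Caudal Epiblast cells, the progenitors at the tail end, the S score was 0.0431 ± 0.00605 and 0.04997 ± 0.00449 (mean ± SD, n = 5 each, exact p = 0.0952, adjusted 0.286). PGC-like cells had a G2M share of 36.2 ± 3.49% and 34.0 ± 7.13% (mean ± SD, n = 5 each, exact p = 0.595). The G1 share had its smallest exact p of 0.405 in NMP/Caudal Epiblast cells (2.61 ± 3.15% and 0.8 ± 1.79%) and PGC-like cells (1.08 ± 2.42% and 3.10 ± 3.39%, mean ± SD, n = 5 each). The smallest exact p of the G2M score was 0.0952, in Differentiation Front cells.

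Whether the S share differed more in 1 cell type than in another was tested on the differences between types within a gastruloid. Presomitic Mesoderm minus Differentiation Front was 1.24 ± 9.08 percentage points in condition 5 and -11.1 ± 1.05 points in condition 6 (mean ± SD, n = 5 each, exact p = 0.00794, adjusted over 15 pairs of types 0.119). Differentiation Front minus Early Somite was -19.5 ± 11.02 points and 2.42 ± 4.79 points (mean ± SD, n = 5 each, exact p = 0.0317, adjusted 0.208). With 6A and 6B left out, the conditions differed by 12.4 points (exact p = 0.0357) and -18.5 points (exact p = 0.143) in these pairs. Thus 0 of 15 pairs were called (0.0%), and 2 had an unadjusted exact p under 0.05 (13.3%).

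Mitochondrial genes encode parts of the respiratory chain. The percentage of reads from these genes was called lower in Presomitic Mesoderm and Somite cells of condition 6. The calls were adjusted over the 6 types of this measure and not over all 48 tests. In Presomitic Mesoderm, the median over cells was 5.56% in 5A, 5.06% in 5B, 5.35% in 5C, 5.67% in 5D and 4.91% in 5E. In condition 6 it was 4.19% in 6A, 4.52% in 6B, 4.63% in 6C, 4.38% in 6D and 4.83% in 6E. Every gastruloid of condition 6 lay below every gastruloid of condition 5. The means were 5.31 ± 0.324% and 4.51 ± 0.243% (mean ± SD, n = 5 each, exact p = 0.00794, the smallest p for 5 against 5, adjusted 0.0476), with a shift of 0.830 percentage points (96.8% interval 0.389 to 1.18).

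In Somite cells the median was 5.38% in 5A, 5.19% in 5B, 5.42% in 5C, 5.22% in 5D and 4.91% in 5E. The values of condition 6 were 4.62% in 6A, 4.21% in 6B, 4.79% in 6C, 4.20% in 6D and 4.95% in 6E, and only 6E exceeded 5E. The means were 5.23 ± 0.203% and 4.55 ± 0.339% (mean ± SD, n = 5 each, exact p = 0.0159, adjusted 0.0476), with a shift of 0.631 percentage points (96.8% interval 0.273 to 1.17).

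The mean of condition 6 was lower in 6 of 6 cell types. In Differentiation Front cells the means were 4.74 ± 0.255% and 4.42 ± 0.215% (mean ± SD, n = 5 each, exact p = 0.151), in Early Somite cells 5.52 ± 0.429% and 5.01 ± 0.403% (mean ± SD, n = 5 each, exact p = 0.151), in NMP/Caudal Epiblast cells 4.79 ± 0.248% and 4.65 ± 0.522% (mean ± SD, n = 5 each, exact p = 0.548) and in PGC-like cells 4.98 ± 0.244% and 4.76 ± 0.469% (mean ± SD, n = 5 each, exact p = 0.421). The cell types come from the same gastruloids and are not independent of each other. The difference was not shown to be larger in some types than in others, since 0 of 15 pairs of types were called (0.0%). At an unadjusted exact p under 0.05 there were 2 pairs (13.3%), namely Presomitic Mesoderm against NMP/Caudal Epiblast (exact p = 0.0159) and against PGC-like cells (exact p = 0.0317). In NMP/Caudal Epiblast and PGC-like cells, 6C and 6E lay above at least 4 of the 5 gastruloids of condition 5, while 6A, 6B and 6D lay below all 5.

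**Figure D5:**
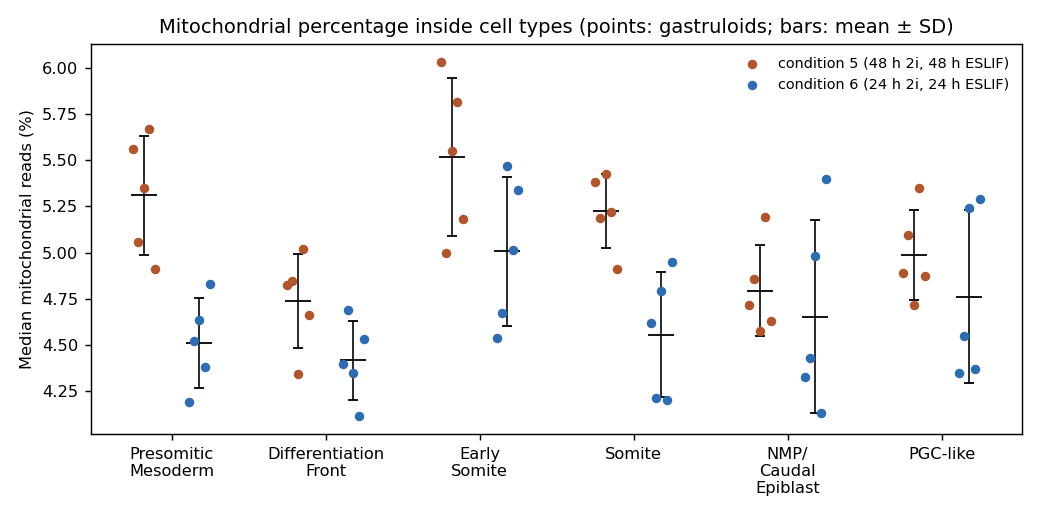
Median percentage of mitochondrial reads (y axis, in %) inside 6 cell types, with 1 point per gastruloid and the mean ± SD of each condition (bars, n = 5). In Presomitic Mesoderm, condition 5 ranged from 4.91% to 5.67% and condition 6 from 4.19% to 4.83%, without overlap.

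Both mitochondrial calls sat at the limit of the design. They were lost without any 1 of 8 gastruloids, all except 5E and 6E, where the differences were 0.7095 to 0.863 percentage points in Presomitic Mesoderm and 0.582 to 0.731 points in Somite cells, with adjusted exact p of 0.0635 to 0.0952. When 6A and 6B were left out, they were 0.696 points (exact p = 0.0357, adjusted 0.214) and 0.579 points (exact p = 0.0714, adjusted 0.214). Among cells with counts between the quartiles, from 6266.75 to 13022.75, the differences were 0.584 points (exact p = 0.0952) and 0.594 points (exact p = 0.0635). Within the plates numbered 1 to 8 they were 0.861 and 0.684 points (both exact p = 0.0357, adjusted 0.107). With the 6 larger cell types weighted alike in every gastruloid, the percentage was 5.18 ± 0.217% and 4.67 ± 0.302% (mean ± SD, n = 5 each, exact p = 0.0556, adjusted over 8 measures 0.444). Over all cells of a gastruloid it was 5.12 ± 0.178% and 4.65 ± 0.305% (mean ± SD, n = 5 each, exact p = 0.0317, adjusted 0.0847). Neither difference was called. The mESCs of both conditions were profiled on 2 plates each, which are technical replicates of 1 culture and allow no test. There the median was 4.50% and 4.86% in condition 5, and 4.93% and 5.43% in condition 6, so the lower values of condition 6 in gastruloids were not found in the mESCs.

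For counts and genes per cell, 0 of 6 cell types were called, and 0 had an unadjusted exact p under 0.05. The smallest exact p for counts was found in NMP/Caudal Epiblast cells, with medians of 10013 ± 1607 and 11917 ± 2017 counts (mean ± SD, n = 5 each, exact p = 0.222, interval of the shift -5483 to 912.5). For genes the same cells gave 4509 ± 383 and 5008 ± 473 (mean ± SD, n = 5 each, exact p = 0.151, interval -1289 to 73.0). Presomitic Mesoderm cells had 9167 ± 1236 and 10737 ± 2792 counts (mean ± SD, n = 5 each, exact p = 0.310), where 6A (14508) and 6B (12686) lay above all others. In Differentiation Front cells, the gene numbers were 4145 ± 560 and 4387 ± 563 (mean ± SD, n = 5 each, exact p = 0.730). Of the 6 types tested, PGC-like cells had the most counts in condition 5, with 12243 ± 1422 compared to 11700 ± 2063 in condition 6 (mean ± SD, n = 5 each, exact p = 0.421). Genes at equal counts, taken as residuals from a fit of genes on counts inside each type, were called in 0 of 6 types, and 0 had an unadjusted exact p under 0.05. Over all cells, the conditions had medians of 9395 ± 1296 and 9808 ± 1790 counts (mean ± SD, n = 5 each, exact p = 0.690), and without 6A and 6B condition 5 was the higher by 757 counts.

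The other 5 of the 11 cell types had too few cells for these tests. Endothelium, which the deposited germ layers count as mesoderm, held 30 cells in condition 5 and 31 in condition 6, with 2 to 9 cells per gastruloid. There were 38 and 34 Endoderm cells, 26 and 13 Allantois cells, and 10 and 19 Spinal Cord cells. Allantois cells stood out by a median of 0.375% mitochondrial reads in condition 5 and 0.428% in condition 6. Neural Crest cells, deposited under the name Neural Tube Progenitors, were not found among the 1532 and 1576 cells. Counting error alone over these pooled cells allows shares of up to 0.196% and 0.190%, which leaves out the spread between gastruloids. As shares of all cells, 0 of 11 types were called, and Somite cells (33.7 ± 10.9% and 19.0 ± 8.35%, mean ± SD, n = 5 each) were the only type with an unadjusted exact p under 0.05 (p = 0.0317, adjusted 0.349). For Somite cells the difference was 14.7 percentage points, and 9.64 without 6A and 6B (exact p = 0.143, adjusted 0.393). NMP/Caudal Epiblast cells made up 9.68 ± 4.16% and 9.71 ± 4.49%, and PGC-like cells 9.64 ± 3.44% and 9.55 ± 1.55% (mean ± SD, n = 5 each).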

How the data were processed

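Single-cell transcriptomes of 10 gastruloids of conditions 5 and 6 were compared, with 5 gastruloids of condition 1 and 4 mESC plates as a reference. The authors trimmed reads with cutadapt (version 4.1), mapped them with STAR (version 2.5.3a) to GRCm38 with masked strain differences and deduplicated them, and the deposited counts per cell are totals without normalization. Their stated filter keeps cells from 500 reads, 100 genes and up to 20% mitochondrial reads, while the table lists 18 cells of conditions 5 and 6 with fewer than 500 counts. The mitochondrial value was deposited as a fraction of the reads of a cell and was multiplied to percent. The S score and the G2M score were deposited without a unit, and their gene lists are not given in the sources used here. Counts, mitochondrial percentage and phase were regressed out by the authors before UMAP and Leiden clustering, and cell types, germ layers and clusters are their annotation. For 7 cell types, the deposited name was exchanged for the name in the paper with the same number of cells. Somite was deposited as Somitic Mesoderm, Differentiation Front as Somitogenesis Wavefront and NMP/Caudal Epiblast as Tailbud. PGC-like was deposited as PGCs, Spinal Cord as Neurons, Endothelium as Haemogenic and Neural Crest as Neural Tube Progenitors. Doublets and free RNA could not be assessed and cells were not thinned, since no values per gene were used.

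Shares, mean scores and medians were computed per gastruloid with Python (version 3.11.15), pandas (version 2.3.3) and scipy (version 1.17.1). The Wilcoxon rank-sum test, two-sided and exact, enumerated the 252 ways to split 10 gastruloids, for which the smallest p is 0.00794, and with the 96.8% interval of the shift from the same test. Benjamini-Hochberg adjustment was applied over the 4 ordered types, over the types per measure, over the 8 measures and over 11 types, and values under 0.05 were called. A type was tested with at least 5 cells in at least 4 gastruloids per condition. Named are the ordered types and, per measure, the 3 types with the smallest p. The tests were checked on simulated, normally distributed values of equal spread, with and without a known shift. Groups of unequal spread, such as some of those compared here, were not simulated. For single gastruloids, 95% Wilson intervals of shares are given, and the upper limit for a count of 0 was set at 3 cells. These limits describe counting error alone. The gastruloids, measures and alternatives were chosen with earlier results of these data known.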

Additional observations from a re-analysis of the deposited data

Results flagged for a closer look

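Within groups of 5 gastruloids, 92 sets of values were examined for a highest or lowest gastruloid far from the other 4, and 8 such values were found. Chance flags about 1 in 20 groups of normally distributed values, which need not hold for shares from few cells. Several of these values belong to the same gastruloid.

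Gastruloid 6B accounted for 4 of them. None of its 15 Somite cells was called S (0.0%), compared to 31.6% to 41.1% in the other gastruloids of condition 6. With cell types weighted alike, its S share was 46.8% (others 56.9% to 60.7%), its G2M share was 51.0% (others 33.3% to 38.3%) and its G2M score was 0.0479 (others 0.0175 to 0.0251). These weighted values include its 15 Somite cells at the weight of the Somite type, 28.4%. The remaining values were a weighted S score of 0.0422 in 6E (others 0.0345 to 0.0366), a G2M share of 20.8% in the Early Somite cells of 5C (others 8.11% to 10.2%), a G1 share of 4.0% in the NMP/Caudal Epiblast cells of 6E and a G1 share of 5.41% in the PGC-like cells of 5E, where the other 4 gastruloids had 0.0%. Both G1 shares come from few cells, 1 of 25 and 2 of 37. With 0.0% in the other 4 gastruloids, any G1 cell would be flagged.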

How the results depend on the processing

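Over 43 results and 861 values under alternative settings, 762 kept their direction and their side of the threshold or moved by less than the limit set for values and counts, 48 lost a call, 5 gained one, 29 changed sign and 17 moved. With 5 gastruloids per condition and 15 to 160 cells of an ordered type per gastruloid, small differences in single types could have been missed. The causes of the changes below were not tested beyond what each setting removes.

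The Somite share of Somite and Early Somite cells (25.5 percentage points, condition 5 minus condition 6) was no longer called with counts between the quartiles (24.1 points), among cells called S (21.3 points) and without 6A and 6B (11.04 points). Leaving out 1 gastruloid gave 17.5 to 30.3 points. The mean stage became called with at least 1000 counts per cell (0.244) and among cells called G2M (0.246), and ranged from 0.114 to 0.280 when 1 gastruloid was left out. For condition 6 against condition 1, the difference of -0.405 was -0.443 without 6A and 6B and -0.486 to -0.284 without 1 gastruloid. Presomitic Mesoderm as a share of mesoderm (1.10 points) turned to -2.20 points without 6A and 6B and to -1.10 points among cells called G2M, and ranged from -0.353 to 3.12 without 1 gastruloid. The spread of the mesoderm order was -0.0760 as a Bray-Curtis distance instead of 0.112 as a deviation of the stage.

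The number of cell types called for the mitochondrial percentage (2) was 0 with counts between the quartiles, within plates 1 to 8, without 6A and 6B and with means in place of medians, 1 with Bonferroni correction, and 0 to 2 without 1 gastruloid. At least 1000 counts per cell gave 1 type called for the S share and 1 for the S score. The number for the G2M share was 0 to 2 without 1 gastruloid.

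Several differences that were never called changed sign. Weighted by cell type, the G1 share (0.105 points) was -0.0771 with at least 1% mitochondrial reads and -0.0965 without 6A and 6B, the S share (1.94 points) -1.99 with counts between the quartiles and -0.826 without 6A and 6B, the G2M share (-2.04 points) 1.08 and 0.922 under the same settings, and the S score 0.00160 within plates 1 to 8 and 0.00153 with medians in place of means. Without 6A and 6B, counts differed by 757 over all cells and 615 weighted by type, and genes by 208 and 153. Leaving out 1 gastruloid gave weighted differences of -0.675 to 0.682 (G1 share), -0.798 to 3.24 (S share), -3.54 to 1.47 points (G2M share), -0.00105 to 0.00111 (S score) and -0.00764 to 0.000211 (G2M score), and differences over all cells of -890.4 to 169 counts and -204 to 57.9 genes.

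Replicate numbers are shared by both conditions. The deviations of same-numbered gastruloids from their group means correlated at -0.0364 to 0.162, over 0.1 for 3 of 5 pairs, and 2 of 5 gastruloids correlated best with their own number, so the numbers were not taken as pairs. With the replicate number as a block, the smallest exact p for 5 pairs is 0.0625, and no result can be called. The Somite share (25.5 points) and the stage of condition 6 against condition 1 (-0.405) then had an exact sign-flip p of 0.0625, and 0 cell types were called for the mitochondrial percentage.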
